A study of Mus musculus with 2 samples.

Results

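Chromatin accessibility at 60 marker genes of skin cells other than keratinocytes was examined in sorted basal cells of mouse back skin. The genes mark melanocytes (10 genes), Langerhans and other myeloid cells (14), T and natural killer cells (9), fibroblasts (10), endothelium (10), skeletal muscle (5) and smooth muscle (2). The assay was ATAC-seq, which uses the Tn5 transposase to cut open DNA and tag it with sequencing adapters, and the deposited counts cover the same 109257 merged regions in each library. A region belonged to a gene when the span of that gene was the nearest of 21896 protein-coding gene spans in RefSeq on GRCm38 and lay at most 20 kb away. By this rule 237 regions belonged to 52 of the 60 genes, 161 of them inside the gene and 76 outside. The other 8 genes, Ednrb, Lyz2, Tyrobp, Fcer1g, Cd3d, Nkg7, Gzma and Lum, had no region.

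There were 2 groups of 1 mouse each, both of CD1, an outbred albino stock. The control library came from an animal with no treatment, and the stretched library came from an animal whose back skin had been expanded by mechanical force. Basal cells of the interfollicular epidermis were sorted by flow cytometry as ITGA6-positive and CD34-negative, and 10000 cells went into each library. ITGA6 is an integrin subunit that anchors basal keratinocytes to the basement membrane, and CD34 marks hair follicle stem cells. Neither group had a replicate animal, so differences between them come with no test and no measure of the spread between animals. Intervals of folds and levels are exact 95% intervals of counting error alone, and reads without molecular identifiers are not independent molecules.

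Skin holds several cell types besides keratinocytes. Pigment cells, Langerhans cells and, in the mouse, a population of T cells live within the epidermis, whereas fibroblasts, vessels and muscle lie beneath the basement membrane. Each lineage opens the promoters and enhancers of its own genes, and a promoter that is closed in one cell type can be open in its neighbour. Promoters rich in CpG dinucleotides tend to be open in many cell types, and CpG-poor promoters of lineage genes tend to be open where the gene is used. In a bulk library of sorted cells, few cells of a type with open DNA and weak opening in many cells cannot be told apart.

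The sequences below are the 250 bases before the start of Krt5, which encodes the basal keratin 5, and of the melanocyte genes on which the pigment result turns. They are RefSeq sequences of GRCm38, the C57BL/6J reference, printed 5' to 3' on the strand of the gene, and the CD1 alleles were not read. Capitals mark the E-box TCATGTG, the sequence bound by the melanocyte regulator MITF, on either strand. Krt5 is at chr15:101712906-101713155 (minus strand), Dct at chr14:118052247-118052496 (minus), Tyr at chr7:87493513-87493762 (minus) and the 30 bases around the Tyrp1 site at chr4:80834155-80834184 (plus). The bases before the Mitf start farthest upstream are at chr6:97806808-97807001 (plus, 194 bases), and those before its most downstream start are at chr6:97991533-97991782 (plus). Mitf has alternative promoters, and the most downstream one is known for the melanocyte isoform.
Krt5 promoter: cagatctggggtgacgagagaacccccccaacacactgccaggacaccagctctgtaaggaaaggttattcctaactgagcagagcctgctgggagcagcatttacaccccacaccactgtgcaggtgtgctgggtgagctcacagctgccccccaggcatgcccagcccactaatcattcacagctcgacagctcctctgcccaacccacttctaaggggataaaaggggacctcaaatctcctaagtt
Dct promoter: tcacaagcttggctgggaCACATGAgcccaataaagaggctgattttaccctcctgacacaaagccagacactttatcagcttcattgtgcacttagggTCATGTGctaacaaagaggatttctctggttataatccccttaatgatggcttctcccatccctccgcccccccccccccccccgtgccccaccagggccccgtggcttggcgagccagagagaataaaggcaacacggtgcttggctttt
Tyr promoter: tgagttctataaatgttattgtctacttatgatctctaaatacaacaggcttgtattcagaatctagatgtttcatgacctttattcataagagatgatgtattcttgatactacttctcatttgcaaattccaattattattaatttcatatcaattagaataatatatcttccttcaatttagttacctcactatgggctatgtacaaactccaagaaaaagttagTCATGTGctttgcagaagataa
Tyrp1 E-box site: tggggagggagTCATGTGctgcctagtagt
Mitf first promoter: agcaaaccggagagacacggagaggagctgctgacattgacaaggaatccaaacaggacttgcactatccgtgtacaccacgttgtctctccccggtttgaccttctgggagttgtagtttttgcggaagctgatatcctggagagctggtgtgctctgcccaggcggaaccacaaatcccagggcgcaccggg
Mitf most downstream promoter: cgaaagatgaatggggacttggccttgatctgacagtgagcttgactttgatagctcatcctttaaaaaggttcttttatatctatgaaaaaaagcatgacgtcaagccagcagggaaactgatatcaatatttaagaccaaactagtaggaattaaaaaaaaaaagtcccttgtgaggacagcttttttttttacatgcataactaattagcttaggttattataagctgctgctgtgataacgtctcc
The E-box stood at -232 and -151 in Dct, at -22 in Tyr and at -47 in Tyrp1, counted in bases from the listed start to the first base of the match. Among 45 listed starts of 38 member genes, only those of these 3 genes held it, and 3.25% of all 32851 promoters in the table did.

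For the myeloid genes, the promoters of H2-Aa at chr17:34287824-34288073 (minus strand) and H2-Eb1 at chr17:34305617-34305866 (plus) are shown because both held a region over the start in both libraries. These genes encode chains of MHC class II, which presents antigen to helper T cells. Capitals mark CTGATTGG, the Y box of class II promoters, searched on both strands.
H2-Aa promoter: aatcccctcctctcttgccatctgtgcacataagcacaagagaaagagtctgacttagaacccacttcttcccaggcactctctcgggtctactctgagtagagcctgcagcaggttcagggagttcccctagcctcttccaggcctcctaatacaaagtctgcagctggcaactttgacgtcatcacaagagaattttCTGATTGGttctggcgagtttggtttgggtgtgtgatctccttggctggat
H2-Eb1 promoter: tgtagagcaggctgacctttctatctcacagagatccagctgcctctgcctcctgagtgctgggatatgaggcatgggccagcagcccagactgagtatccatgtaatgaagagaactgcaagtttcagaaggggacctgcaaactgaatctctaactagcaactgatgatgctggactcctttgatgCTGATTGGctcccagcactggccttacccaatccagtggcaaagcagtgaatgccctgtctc
The Y box began at -51 in H2-Aa and at -62 in H2-Eb1, and Twist2 was the third member gene that held it, against 3.83% of all promoters. These matches describe the reference letters and do not show that a factor was bound.

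Genes of basal keratinocytes were accessible in the sorted cells. The level below is the TMM-scaled CPM (counts relative to library size) per kb of region. Counts and lengths were each summed over the regions that touch a window of 1000 bases either side of a gene's start sites. The summed count was then divided by the summed length, so a weak further region lowers the level of a gene. TMM, the trimmed mean of M values, scales the libraries so that most regions keep their ratio. At Krt5, the region over the start (chromosome 15, 101712478 to 101715016) had 306 counts in the control library and 297 in the stretched one. At Krt14, the partner keratin of Krt5, the region over the 5' end of the gene (chromosome 11, 100207276 to 100209286) had 293 and 358 counts. The mean of both genes was a level of 12.7 in the control library and 14.9 in the stretched one, and the levels of the markers are given as a percent of this mean within the same library (the keratin level). Of 16 genes of a basal keratinocyte list, which includes Krt5 and Krt14 themselves, 15 had a peak at the start site in each library, with a median of 86.0% of the keratin level in the control library and 82.2% in the stretched one. The gene without a peak was Trp63, which had 31 and 40 counts at a gene end, or 29.5% and 34.4% of the keratin level. Its start was not listed, so starts inside the gene were not examined. The 38 regions assigned to Trp63 had 1139 and 1316 counts in sum. Such levels are not particular to basal genes, since 10 housekeeping genes had medians of 73.0% and 87.0%. At Cd34, the gene of the marker that was sorted against, the start-site regions had 46 and 24 counts.

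Start sites of the non-keratinocyte markers held a peak less often, and a lower median level, than those of protein-coding genes at large. A peak listed by the authors lay in the window of 29 of 60 members (48.3%) in the control, against 62.9% of all protein-coding genes, and of 25 members (41.7%) in the stretched library, against 63.7%. A total of 23 members had a start-site peak in both libraries, 6 in the control alone, 2 in the stretched library alone and 29 in neither. With the requirement that a peak cover the start base itself, the counts were 14 and 13 members, against 53.5% and 56.2% of all genes. A merged region, with or without a peak, touched the window of 34 members, against 68.1% of all genes. The start was known for 38 members, of which 21 had such a region, and for the other 22 either end of the gene was used, of which 13 had one.

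Among the 34 members with a start-site region, the median level was 40.3% of the keratin level in the control library and 25.0% in the stretched one. The same medians over all 14907 genes with a start-site region were 61.1% and 63.6%. A level of at least 50% of the keratin level was reached by 13 members in the control library and 5 in the stretched one, against 64% and 61.8% of all genes with a region. A level at or above the keratin level was reached by 3 members in each library, Pmel, Mylpf and Dct, against 18.7% and 27.5% of all genes with a region. For Pmel and Mylpf the region at the start site was not theirs alone, as described with each gene. By the level summed over the start-site regions of a gene, all other 31 members stayed below the keratin level in both libraries. Some single regions did not. The region over the most upstream Mitf start had levels of 14.3 in the control library and 16.2 in the stretched one, against keratin means of 12.7 and 14.9. The region over a gene end of H2-Ab1 had 16.9 in the control library and 5.55 in the stretched one.

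**Figure D1:**
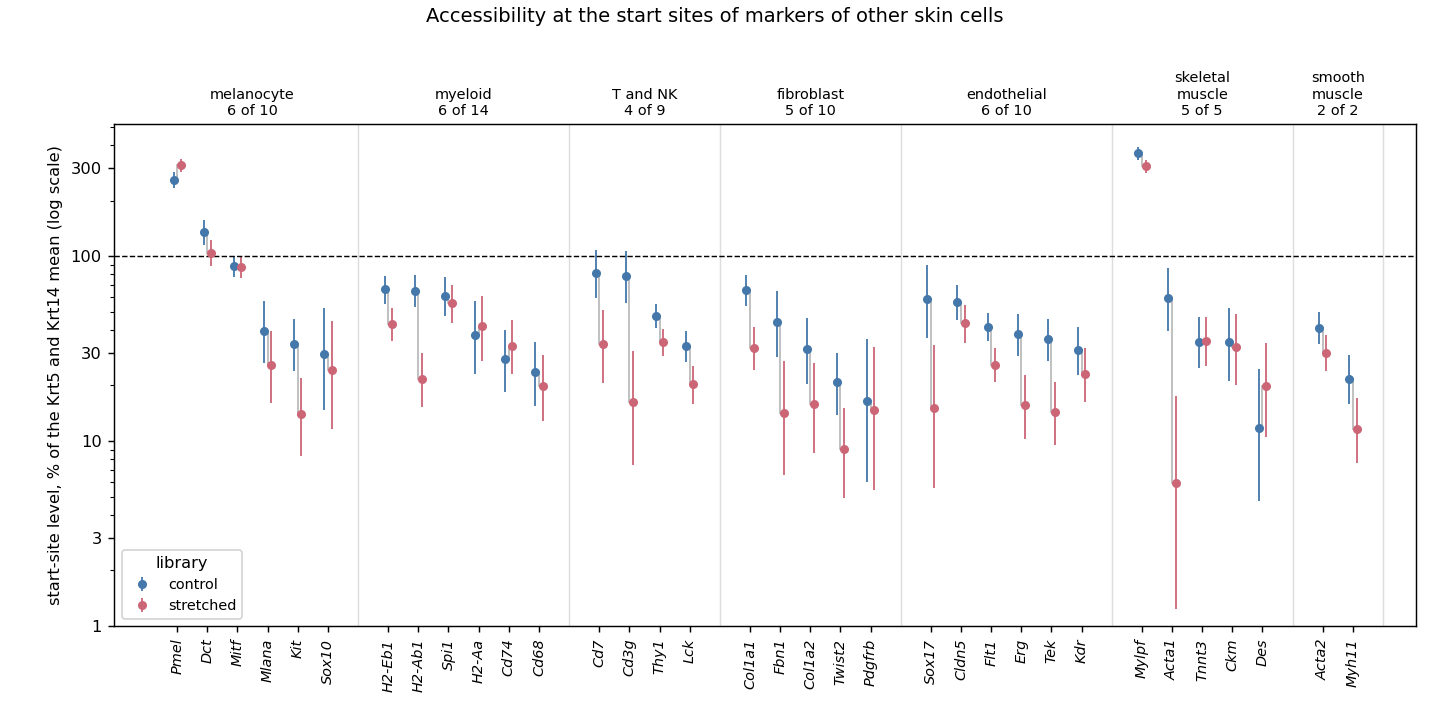
Start-site level of the 34 markers with a region in the window, as a percent of the Krt5 and Krt14 mean of the same library (log scale), control in blue and stretched in red, by lineage with the number of genes plotted of the number in the list. Bars are exact 95% Poisson intervals of the gene's own count. The dashed line is the keratin level, which only the summed levels of Pmel, Dct and Mylpf reach.

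Melanocyte genes held the most accessible start site that belonged to a marker alone. The lineage makes pigment in melanosomes and passes it to keratinocytes. At Dct, which encodes the melanin enzyme dopachrome tautomerase, the region on chromosome 14 from 118050753 to 118051739 had 177 counts in the control library and 152 in the stretched one. It began 507 bases inside the gene from the start at 118052246 and did not cover the start, so the promoter printed above lay outside it. The Dct level was 134.7% of the keratin level in the control (115.6 to 156.1) and 104.4% in the stretched library (88.5 to 122.4), with peaks of 80 and 105 fragments. Its fold, stretched over control, was 0.907 (0.726 to 1.13).

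Mitf, the master regulator of melanocytes, which is also transcribed from other promoters in other cells, had 226 and 247 counts at its starts, or 88.3% (77.2 to 100.6) and 87.1% (76.6 to 98.6) of the keratin level. The region over the most upstream start, on chromosome 6 from 97806314 to 97807614, held 195 and 209 of these counts, and the region over the start at 97929817 held 31 and 38. No region touched the window of the most downstream start at 97991783. The most upstream Mitf promoter had a CpG observed over expected ratio of 0.676 and the most downstream one 0.373. Mitf held 14 regions in all, each with at least 20 counts and none of them called higher or lower. The deepest away from a start had 214 and 172 counts, inside the gene on chromosome 6 from 97952613 to 97953492.

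The enzymes and melanosome proteins gave a mixed picture. Tyr, the gene of tyrosinase, and Tyrp1, its relative, had no region at their start sites, although both promoters held the E-box. The only Tyr region lay inside the gene and had 6 and 9 counts. A region on chromosome 4 from 80864476 to 80865134, 12740 bases beyond Tyrp1, had 141 and 119 counts. Slc45a2, a melanosomal transporter gene, had no region at either gene end, and its 4 regions lay inside the gene with 198 and 237 counts in sum. Ednrb, the endothelin receptor of melanoblasts, had no region at all. Mlana, a melanosome protein gene, had 29 and 21 counts at a gene end, or 39.6% and 25.9% of the keratin level. Sox10, a neural crest regulator, had 11 and 10 counts and no peak there.

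For Pmel, which encodes the amyloid protein of melanosome fibrils, the region at 1 gene end (chromosome 10, 128695681 to 128696863) had 406 and 541 counts, or 257.8% and 310.0% of the keratin level. That region was assigned to Rab5b, a gene of vesicle transport, and the regions assigned to Pmel itself had 133 and 146 counts. Kit, the receptor of stem cell factor on melanocytes and mast cells, had 39 and 18 counts at its start, and the fold was 0.488 (0.263 to 0.873). Its level was 33.5% of the keratin level in the control library and 13.9% in the stretched one.

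**Figure D2:**
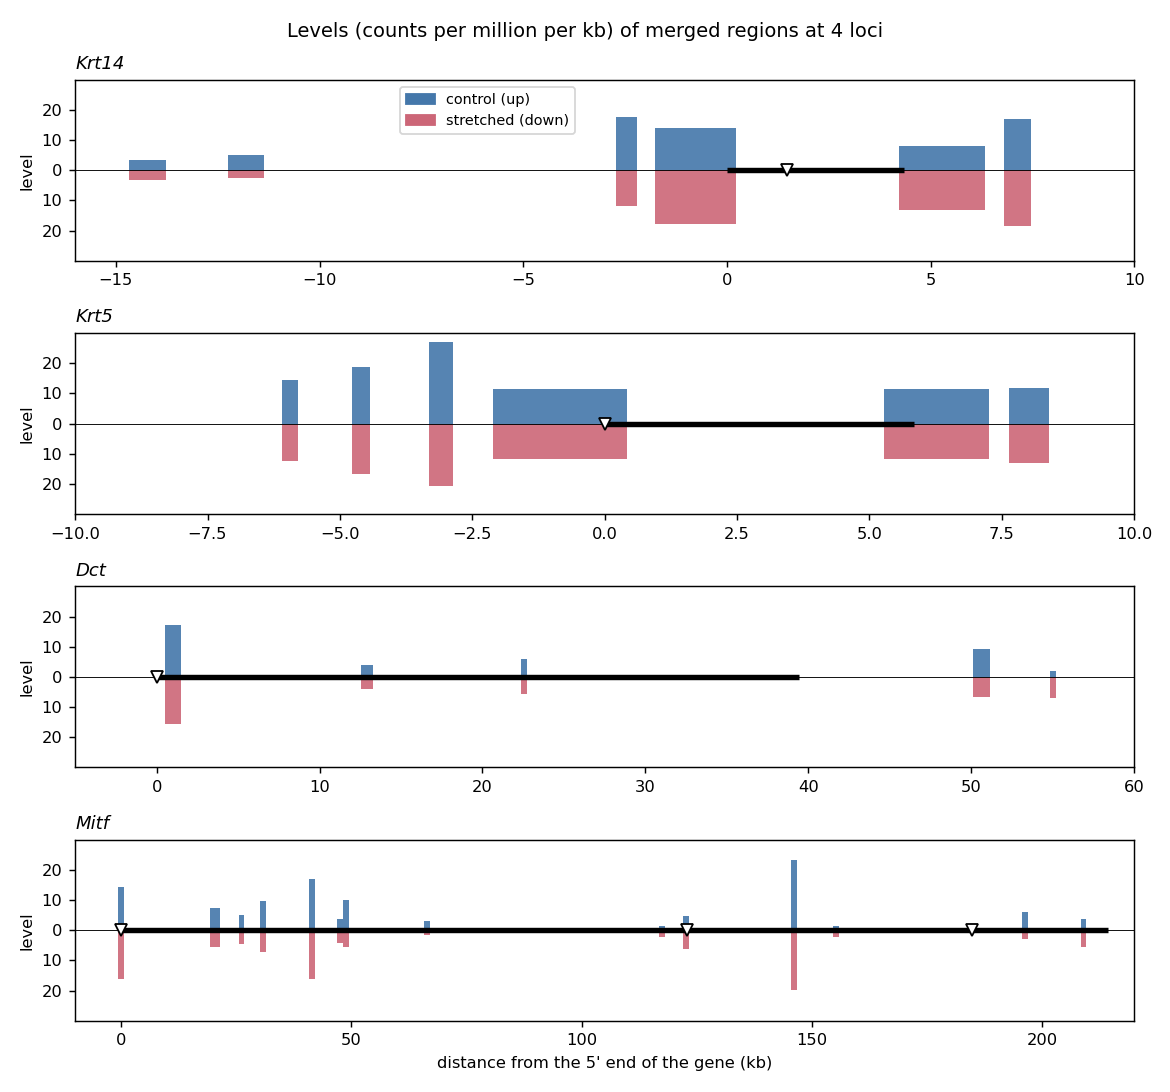
Levels of the merged regions assigned to Krt14, Krt5, Dct and Mitf (scaled CPM per kb, control upward in blue, stretched downward in red) by distance from the 5' end of each gene in kb, with the gene as a black bar and listed starts as triangles. The Dct region lies just inside the gene beside its start, Mitf has tall regions at its first start and inside the gene, none lies at its last start, and very narrow regions are widened to stay visible.

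In the Langerhans and myeloid list, levels at start sites or gene ends in the control were highest at MHC class II genes and Spi1. H2-Eb1 had 135 and 97 counts, or 66.1% (55.4 to 78.3) of the keratin level in the control and 42.9% (34.8 to 52.3) in the stretched library, with a fold of 0.759 (0.579 to 0.993). H2-Ab1, the beta chain of the other class II molecule, had 100 and 37 counts at its gene ends, or 65.2% and 21.8%. Of these, 87 and 27 lay in the region on chromosome 17 from 34263122 to 34263611, whose fold was 0.328 (0.205 to 0.510). H2-Aa, its alpha chain, had 21 and 26 counts, or 37.4% and 41.8%, and a fold of 1.31 (0.708 to 2.45). H2-Aa was thus the only one of the 3 class II genes whose interval included 1.

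Spi1, the gene of the myeloid transcription factor PU.1, had 71 and 72 counts in a region over 1 gene end (chromosome 2, 91114973 to 91115848), or 60.9% and 55.7% of the keratin level. No region touched the window of its other end at 91082374. Which end is the start was not known here, so this level may not be that of its promoter. Cd74, the class II invariant chain gene, had 29 and 38 counts with a peak in the stretched library alone. Cd68, a lysosomal macrophage protein gene, had 27 and 25 counts, also with a peak in the stretched library alone. Several defining genes had no start-site region, namely Cd207, which encodes langerin of Langerhans cells, Ptprc, which encodes the leukocyte antigen CD45, Csf1r, the receptor of colony stimulating factor, Itgam, Lyz2, Tyrobp, Fcer1g and Cx3cr1. Cd207 had 3 regions elsewhere with 74 and 49 counts in sum. Cx3cr1, a chemokine receptor gene, had the deepest region of this list, with 109 and 112 counts inside the gene (chromosome 9, 120049323 to 120050145).

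T-cell genes showed start-site regions at 4 of 9 members, each with fewer scaled counts in sum in the stretched library. At Cd3g, a chain of the T-cell receptor complex, the region over the start (chromosome 9, 44980362 to 44980736) had 39 counts in the control library and 9 in the stretched one, a fold of 0.244 (0.104 to 0.512). Its level went from 78.1% of the keratin level (55.6 to 106.8) to 16.3% (7.4 to 30.9), and the peak was listed in the control alone. At Cd7, a T and natural killer cell surface protein gene, the gene-end region had 46 and 21 counts, a fold of 0.482 (0.273 to 0.825). Thy1, a surface protein of mouse T cells that fibroblasts and neurons also carry, had 187 and 149 counts at its gene ends, or 47.6% and 34.2%. The fold was 0.842 (0.674 to 1.05), an interval that included 1. Of its 4 gene-end regions, 1 had a fold of 0.560 (0.414 to 0.752). The others had folds from 1.36 to 1.69, with intervals that included 1. At Lck, the kinase of T-cell receptor signalling, a region that touched the window of an internal start had 108 and 74 counts, and no region touched its most upstream start.

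No merged region touched the start-site windows of Cd3e, Cd3d, Cd2, Nkg7 and Gzma, and Cd3d and the cytotoxic granule genes Nkg7 and Gzma had no region at all. Counts were given for merged regions alone, so a missing region does not show closed chromatin. Near Cd3e, another chain of the receptor complex, a region 3973 bases outside the gene (chromosome 9, 45013636 to 45014285) had 64 and 19 counts, a fold of 0.314 (0.177 to 0.530). The deepest region of the list lay 1705 bases outside Thy1 (chromosome 9, 44040559 to 44041679), with 217 and 107 counts and a fold of 0.521 (0.409 to 0.660), which was not past 2-fold.

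Fibroblast genes were lower than the keratin level throughout. Col1a1, which encodes a chain of collagen I, the main collagen of dermis, had 109 and 59 counts at a gene end, or 65.6% (53.8 to 79.1) and 32.0% (24.4 to 41.3), and its fold was 0.572 (0.409 to 0.792). The region, on chromosome 11 from 94936853 to 94938101, lay inside the gene, 629 bases from that end. Col1a2, the partner chain, had 25 and 14 counts over its start, or 31.3% and 15.8%. Twist2, a dermal transcription factor gene, had 29 and 14 counts, or 20.8% and 9.06%. Fbn1, the gene of the microfibril protein fibrillin, had 25 and 9 counts at its start and a fold of 0.380 (0.156 to 0.843). Pdgfrb, a receptor of pericytes and fibroblasts, had 6 counts in each library and no peak. Col3a1, Pdgfra, Dcn, Lum and Dpt had no region at their start sites. Pdgfra, the receptor gene that marks dermal fibroblasts, held the deepest fibroblast region, inside the gene on chromosome 5 from 75155712 to 75157298, with 159 and 107 counts.

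Endothelial genes had a start-site region at 6 of 10 members. Cldn5, the gene of a tight junction protein of vessels, had 84 and 71 counts over its start, or 56.8% (45.3 to 70.3) and 43.3% (33.8 to 54.6) of the keratin level. Flt1, a receptor of vascular endothelial growth factor, had 129 and 89 counts in a region over both of its starts, or 41.6% and 25.9%. Tek, the angiopoietin receptor gene, had 60 and 27 counts, a fold of 0.476 (0.290 to 0.761). Erg, an endothelial transcription factor gene, had 59 and 27 counts, a fold of 0.484 (0.295 to 0.775). Kdr, the main growth factor receptor of endothelium, had 45 and 37 counts, and Sox17, a regulator of arterial endothelium, had 21 and 6 with a fold of 0.302 (0.100 to 0.773).

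The remaining endothelial genes, Pecam1, Cdh5, Emcn and Vwf, had no start-site region. Pecam1, an adhesion protein gene, nevertheless held 14 regions with 852 and 699 counts in sum, the deepest of them inside the gene with 224 and 183 counts (chromosome 11, 106673643 to 106675909). Vwf, the gene of von Willebrand factor, held 15 regions, and 4 of them, all inside the gene, were at least 2-fold lower in the stretched library, with folds from 0.366 to 0.495. At Emcn, an endothelial sialomucin gene, the only region had 23 and 3 counts, a fold of 0.138 (0.026 to 0.456).

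All 5 skeletal muscle genes and both smooth muscle genes had a start-site region, most of them at low counts. At Mylpf, a fast-muscle myosin light chain gene, the region over the 5' end of the span had 633 and 597 counts, or 359.4% and 305.9% of the keratin level (chromosome 7, 127208184 to 127209506). No region touched the window of its listed start at 127211608. This region also touched the start window of the neighbouring gene Tbc1d10b, a regulator of Rab GTPases, and it cannot be given to either gene. Acta1, skeletal muscle actin, had 27 counts in the control library and 3 in the stretched one, in a region 257 bases before its start, a fold of 0.117 (0.023 to 0.382). Tnnt3, a troponin gene of fast muscle, had 41 and 46 counts, Ckm, muscle creatine kinase, had 21 and 22, and Des, the muscle intermediate filament gene, had 7 and 13 with no peak. Of the smooth muscle genes, Acta2, which also marks myofibroblasts, had 102 and 83 counts, or 41.0% and 30.1%, and Myh11, the smooth muscle myosin, had 44 and 26.

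By lineage, the median start-site level of members with a region was 64.0% of the keratin level in the control library and 56.5% in the stretched one for melanocyte genes, and without Pmel, whose region was assigned to Rab5b, the values were 39.6% and 25.9%. The T and natural killer list had 62.9% and 26.8%, and the myeloid list had 49.1% and 37.3%. The endothelial list had 39.7% and 19.3%, skeletal muscle had 34.5% and 32.3% (34.3% and 26.1% without Mylpf), smooth muscle had 31.4% and 20.9%, and fibroblasts had 31.3% and 14.8%. The ranges within lists were wider than the gaps between them, for example from 29.4% to 257.8% among melanocyte genes in the control, so the order of neighbouring lists carries no weight. For scale, 10 housekeeping genes had medians of 73.0% and 87.0%. Genes of tissues outside skin, such as liver, neurons and testis, had a start-site region at 4 of 15 members, with medians of 35.8% and 43.7%. Other cell types that the sort could hold gave 51.4% and 41.7% for 6 of 7 Merkel cell genes and 37.1% and 47.2% for 5 of 6 Schwann cell genes, and 1 of 6 mast cell genes had a region.

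Between the libraries, member regions were more often lower than higher in the stretched library. The libraries also differed in how much signal lay in merged regions. The control had 8820178 counts there beside 31944854 fragments after filtering, and the stretched library 11803785 beside 23876613. Whether this difference affected the folds of weak regions was not tested. The fold was called at 2 or more in either direction, with at least 20 counts in sum and an interval that excluded 1. Of 206 member regions with at least 20 counts, 25 (12.1%) were called lower, against 8.71% of all 94857 such regions, and 7 (3.4%) were called higher, against 7.22%. Scaled by total counts instead, the split was 57 lower and 4 higher, against 23.2% and 1.68% of all regions. Member regions had fewer counts than regions at large, with a median of 49 against 57. Among regions with 20 to 99 counts, 24 of 153 members (15.7%) were lower, against 12.1% of all regions, and 7 (4.58%) were higher, against 7.84%. Among the 53 member regions with 100 counts or more, 1 was lower and 0 were higher, against 2.87% and 6.16% of all regions of that depth. The median log2 fold was -0.18 for member regions and -0.003 for all regions, and -0.20 against -0.11 at 20 to 99 counts.

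The 25 lower regions were spread over 6 of the 7 lists, with 0 in smooth muscle. Endothelial genes held 10 of 64, fibroblast genes 5 of 29, T and natural killer genes 3 of 21, myeloid genes 3 of 35, melanocyte genes 2 of 36 and skeletal muscle genes 2 of 12. Outside the start sites they included 2 regions of Dpt, the dermatopontin gene of dermal matrix, with 32 and 3 counts and with 25 and 10, and 1 inside Pdgfrb with 42 and 16. They also included 1 inside Mlana with 55 and 22 counts and 1 outside Cx3cr1 with 32 and 12. Inside Flt1 1 region had 33 and 10 counts, inside Tek 1 had 41 and 17, and inside Tnnt3 1 had 21 and 5. A region 19843 bases outside Col1a2 had 19 and 5 counts. Another region of H2-Ab1, 1310 bases outside the gene, had 37 and 16 counts.

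The 7 higher regions all lay away from start sites. Erg held 2 of them, inside the gene, with 13 and 28 counts and with 5 and 24. Ptprc held 1 inside the gene with 3 and 20 counts, a fold of 7.04 (2.09 to 37.0). The others were 1 region beyond Dct with 7 and 26 counts, 1 inside Mlana with 17 and 34, 1 outside Acta2 with 7 and 25 and 1 outside Dpt with 16 and 32. Erg, Mlana and Dpt thus had regions called in both directions.

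**Figure D3:**
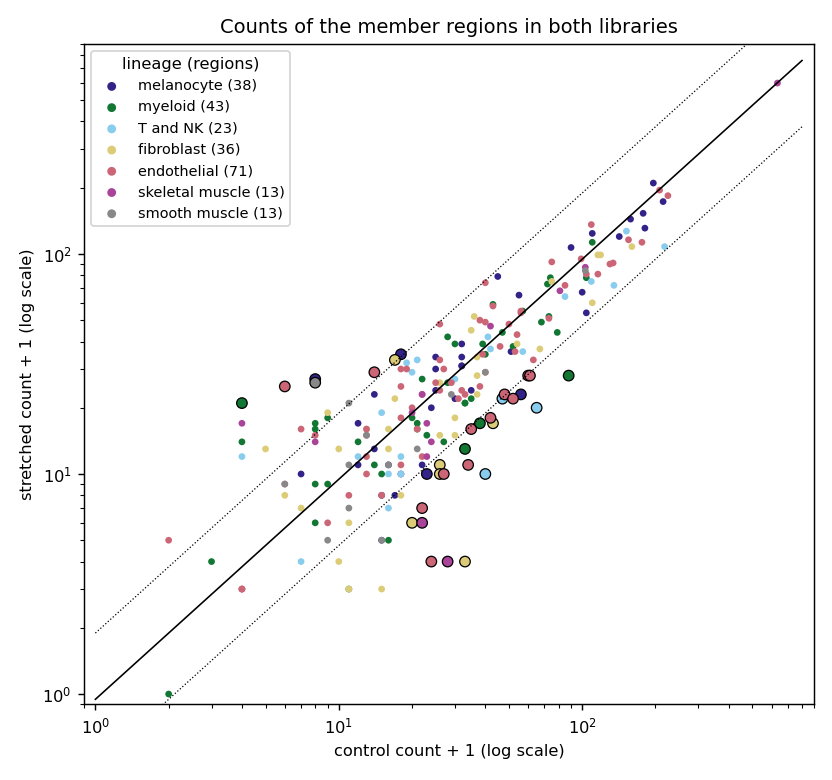
Counts plus 1 of the 237 member regions in the control (x axis) and stretched library (y axis), both on log scales, coloured by lineage, with called regions drawn large and outlined. The solid line is a fold of 1 after TMM scaling and the dotted lines are 2-fold, and the 32 called regions lie at the low-count end, 25 of them below the lines.

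**Figure D4:**
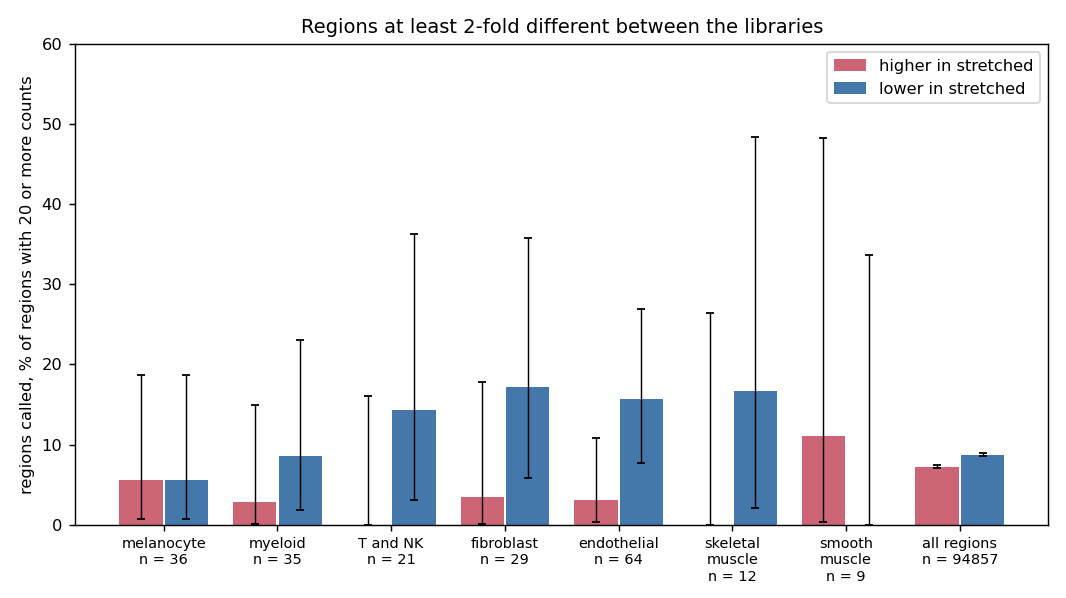
Share of regions with at least 20 counts called higher (red) or lower (blue) in the stretched library, in percent, for each lineage and for all regions, with exact 95% binomial intervals, which treat regions as independent, and the number of regions under each group. The intervals of the lineages are wide, and each one spans the share over all regions, 7.22% higher and 8.71% lower.

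Start-site sums leaned the same way as single regions, but they share counts with those regions and are not separate evidence. Of 33 members with at least 20 start-site counts, 25 had a fold below 1, against 31.3% of all genes, and 9 were called lower and 0 higher, against 2.57% and 9.39%. Many members have shallow start sites, and shallow start sites were lower in general, but whether depth accounts for the lean of the members was not tested. At 20 to 99 counts, 15 of 20 members had a fold below 1, against 61.6% of all genes, with a median fold of 0.608 against 0.869, and 8 were called lower and 0 higher, against 11.7% and 4.25%. Above 99 counts in sum, the fold was below 1 for Dct, H2-Ab1, H2-Eb1, Thy1, Lck, Col1a1, Flt1, Cldn5, Mylpf and Acta2. It was above 1 for Mitf, Pmel and Spi1. Of these deeper members, the intervals of Dct, Thy1, Cldn5, Mylpf, Acta2, Mitf and Spi1 included 1. The 9 members called lower were Kit, H2-Ab1, Cd3g, Cd7, Fbn1, Tek, Erg, Sox17 and Acta1.

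Summed over all regions of a list, each lineage had a fold below 1. The T and natural killer sum was 0.724 (0.660 to 0.792), with 1164 and 797 counts, and it was 0.757 without Thy1. The fibroblast sum was 0.795 (0.731 to 0.865), the endothelial sum 0.892 (0.847 to 0.938) and the myeloid sum 0.895 (0.828 to 0.967). Without H2-Eb1 the myeloid sum was 0.941 (0.864 to 1.02), an interval that included 1. The intervals of the melanocyte sum, 0.953 (0.896 to 1.01), skeletal muscle, 0.945 (0.863 to 1.03), and smooth muscle, 0.928 (0.779 to 1.11), included 1. This depended on the scaling, since by total counts the intervals of all 3 lay below 1, with upper bounds of 0.717, 0.731 and 0.782. The sum over all members was 0.880 (0.856 to 0.906), beside 1.08 for the basal keratinocyte list and 1.30 for housekeeping genes. The other lists lay on both sides of 1, at 1.37 for Schwann cell, 1.32 for mast cell, 0.950 for Merkel cell, 0.912 for hair follicle stem cell and 0.671 (0.571 to 0.787) for adipocyte genes. Genes of tissues outside skin stood at 0.733 (0.670 to 0.801) and at 1.23 without Rbfox3. Whether the libraries held different numbers of these cells was not tested.

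The CpG content of the promoters varied with whether a start-site region was present, in members as in all genes. Of 9 member promoters with a CpG observed over expected ratio of at least 0.6, 8 had a region in the window, and 14 of 36 below 0.6 (38.9%) had one. Over all promoters the shares were 94.1% and 35.6%. The 8 belonged to Kit, Kdr, Mitf, Fbn1, Flt1, Twist2 and Erg, and the exception was Ptprc at 0.654. H2-Eb1 had no CpG in the 250 bases printed above and still held a region over its start, as did H2-Aa at 0.190. Krt5 itself stood at 0.105, among CpG-poor promoters.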

How the data were processed

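ATAC-seq libraries of sorted basal cells, 1 per group by the treatment label, were analysed from the processed files. The submitters' processing notes name GRCm38 as the build and, as tools, MACS2 2.1.0.20151222, HTSeq, Picard, SAMtools and Bowtie2 2.2.6. The authors called peaks on each library alone with a q cutoff of 0.05, per the file headers, which give 31944854 fragments after filtering in the control library and 23876613 in the stretched one. The deposited summit pileup is a signal in fragments. The authors' fold enrichment is a ratio to local background, from which the deposited -log10 p-value and -log10 q-value of a peak follow. Peaks were used by position and pileup. The deposited counts are raw counts per merged region, with totals of 8820178 and 11803785. Those totals include 10 large regions, each above 10000 counts. The sources used here do not state what was counted or whether duplicates were removed.

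Counts were scaled with TMM factors (1.19 and 0.841, edgeR 4.0.16 in R 4.3.3) over all regions. The lone library in each group allows no test. Folds carry exact Clopper-Pearson intervals and levels exact Poisson intervals, both 95%. Intervals of a percent of the keratin level leave out the error of the keratin mean. The fold rule was tested on simulated counts with counting error alone, which hold no spread between animals. Gene spans and promoters came from RefSeq tables of GRCm38, and exons and introns were not used here. Start windows took the 5' end of the span and each listed start. The 5' end was added after the only listed start of Krt14 was seen to lie inside the gene. The promoter table has no entry for Sox17, Dcn, Cd7, H2-Ab1, Myh11, Csf1r, Pmel, Tyrobp, Sox10, Cd74, Lum, Tnnt3, Pecam1, Cdh5, Cd2, Vwf, Col1a1, Mlana, Spi1, Thy1, Slc45a2 and Pdgfrb, for which either gene end was used. The members and lists were chosen with earlier results of these data known. Full values are given for up to 4 members per lineage with a start-site peak by start-site count, every member with a called region and the deepest region of each lineage. Other members were named as examples. Alternatives covered the scaling (including DESeq2 1.42.0 size factors), count and fold limits, distances and start windows. Intervals, tables and figures were made with scipy 1.17.1, pandas 2.3.3, matplotlib 3.10.9 and numpy 2.4.6 under Python 3.11.15.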

Additional observations from a re-analysis of the deposited data

How the results depend on the processing

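Each summed fold stayed below 1 under all alternatives run. The order of the libraries in members with a start-site peak did not hold, since counts of 29 (control) and 25 (stretched) became 20 and 21 with peaks of -log10 q of at least 5, and 21 in each with windows of 250 bases. Of 94 values under alternatives, 58 were classed as the same and 36 as moved. The first class is loose. It holds the 20 and 21 members with a control peak beside 29, and 33 lower calls at a fold of at least 1.5 beside 25. The 58 include levels relative to the keratins under other scalings, which could not change because they are ratios within a library. Over all regions, the median log2 fold went from -0.003 to -0.50 when total counts set the scale, and to -0.14 without the 10 large regions, so the size of each fold rests on the scaling, while levels relative to the keratins within a library do not.

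Calls of 7 higher and 25 lower became 4 and 57 by total counts, 1 and 11 with at least 50 counts, and 4 and 10 with a fold of at least 3. Higher calls were 4 within 5 kb of the gene and 4 inside it. DESeq2 size factors gave 7 and 25. By total counts the summed folds were 0.674 for melanocyte, 0.633 for myeloid, 0.512 for T and natural killer, 0.562 for fibroblast, 0.631 for endothelial, 0.668 for skeletal muscle and 0.656 for smooth muscle genes. Without the large regions the first 6 were 0.865, 0.812, 0.656, 0.721, 0.809 and 0.857, and the melanocyte (0.813 to 0.920) and skeletal muscle (0.783 to 0.938) intervals then lay below 1. Without Mylpf the skeletal muscle sum was 0.861, and without Acta2 the smooth muscle sum was 0.682 (0.484 to 0.953).

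Pooled over members, the start-site level was 66.3% of the keratin level in the control library and 51.5% in the stretched one. It was 73.7% and 60.9% with windows of 250 bases, 63.4% and 47.6% with 2000 bases, 47.6% and 32.0% without Mylpf and Pmel, 78.5% and 58.9% with either gene end for every gene, and 55.2% and 49.3% by peak pileup. With listed starts only, against Krt5, the control value was 60.6%. Members with a peak fell to 14 and 13 when the peak had to cover the start base. The start at the 5' end, either gene end, listed starts, the start base, the removal of Mylpf and Pmel and of regions at another gene's start were chosen after seeing the data. No paired analysis was possible because each group has 1 library with no shared replicate, and for the same reason no replicate could be left out. With a median of 49 counts per member region, changes well under 2-fold were not detectable at this depth in most single regions.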
